A study of Mus musculus with 15 samples.

Results

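The genes described here are 8 genes of the melanocyte, the pigment cell, out of 53700 genes in a raw count table of mouse skin RNA-seq. They are Pmel (ENSMUSG00000025359.11), Dct (ENSMUSG00000022129.5), Tyr (ENSMUSG00000004651.7), Tyrp1 (ENSMUSG00000005994.15), Mlana (ENSMUSG00000024806.5), Slc45a2 (ENSMUSG00000022243.11), Mitf (ENSMUSG00000035158.16) and Ednrb (ENSMUSG00000022122.16). The members were chosen by symbol as melanosome and melanocyte lineage genes, with the higher counts of Pmel and Dct in skin given SNX-5422 after PAO already known. Values of that contrast are therefore a description without a test for all 8 genes. Pmel and Dct were also left untested wherever libraries with PAO enter a comparison. Tyr, Tyrp1, Mlana and Slc45a2 moved with Pmel and Dct across the libraries (Pearson's r from 0.802 to 0.957). Their tests in comparisons with PAO libraries are therefore not independent of that choice. All 8 genes passed the filter on low counts.

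The samples were whole dorsal skin of male SKH-1 mice, a hairless stock that is albino, taken at 24 h in 15 libraries, 3 in each of 5 groups. Control skin received the ethanol vehicle. PAO skin received phenylarsine oxide, a trivalent arsenical, at 100 µg per mouse or 25 µg/cm2. CEES skin received 2-chloroethyl ethyl sulfide, a monofunctional relative of sulfur mustard, at 2 mg per mouse or 500 µg/cm2. Each agent was applied in ethanol in 30 µL over 2 × 2 cm. In the SNX-5422+PAO and SNX-5422+CEES groups, the treated area also received 20 mg/kg of SNX-5422, which blocks the chaperone HSP90, 15 min after the agent. All mice with an agent thus also received ethanol, and SNX-5422 was not given alone in any group used here. The labels do not give ages.

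Melanocytes make melanin in melanosomes, organelles that mature along a scaffold of amyloid fibrils formed by the PMEL protein. Tyrosinase (TYR) starts melanin synthesis from tyrosine, and dopachrome tautomerase (DCT) and TYRP1 act on later intermediates. MLANA is a melanosome membrane protein that acts on PMEL processing, and SLC45A2 is a transporter that affects melanosome pH. MITF is the transcription factor that drives these genes, and EDNRB is the endothelin receptor through which melanocyte precursors survive and migrate. In pigmented, haired mouse skin the pigment-producing melanocytes lie mainly in growing hair follicles, and their place in the hairless stock used here was not examined. MITF is also made in mast cells and macrophages and EDNRB in endothelial cells, so in whole skin neither transcript marks melanocytes alone. Albino mice keep melanocytes, which lack working tyrosinase.

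MITF binds E-boxes, and the longer form TCATGTGCT is known as the M-box of pigment gene promoters. Promoters of 5 of the 8 genes were matched in a RefSeq table of GRCm38.p6 that spans 250 bases before to 50 after each start site. Pmel, Mlana and Slc45a2 had no promoter in it. Dct, Tyr and Tyrp1 moved together with these 3 genes across the libraries, but with Mitf they had Pearson's r of log2 CPM from -0.143 to 0.0313. The 3 promoters that hold the M-box are shown. They lie at chr14:118052197-118052496 on the minus strand (Dct), chr7:87493463-87493762 on the minus strand (Tyr) and chr4:80833963-80834262 on the plus strand (Tyrp1), and are written 5′ to 3′ along the gene with the M-box in capitals.
Dct: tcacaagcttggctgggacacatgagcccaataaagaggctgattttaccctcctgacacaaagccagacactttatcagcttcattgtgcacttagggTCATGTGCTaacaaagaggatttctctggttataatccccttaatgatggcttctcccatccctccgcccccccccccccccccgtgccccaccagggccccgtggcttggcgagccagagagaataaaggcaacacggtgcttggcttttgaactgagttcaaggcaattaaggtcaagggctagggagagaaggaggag
Tyr: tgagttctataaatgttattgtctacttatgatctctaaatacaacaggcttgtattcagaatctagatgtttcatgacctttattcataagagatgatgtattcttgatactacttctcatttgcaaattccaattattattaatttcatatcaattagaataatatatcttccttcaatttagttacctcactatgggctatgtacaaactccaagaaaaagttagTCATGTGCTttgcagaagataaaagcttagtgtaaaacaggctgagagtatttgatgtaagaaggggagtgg
Tyrp1: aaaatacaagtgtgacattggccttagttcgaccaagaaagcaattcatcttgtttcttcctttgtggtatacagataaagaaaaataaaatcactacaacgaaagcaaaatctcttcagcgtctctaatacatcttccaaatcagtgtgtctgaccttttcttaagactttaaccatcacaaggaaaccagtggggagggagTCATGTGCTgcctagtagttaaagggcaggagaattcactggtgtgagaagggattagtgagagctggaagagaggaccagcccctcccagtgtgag
The M-box began 151 bases before the start site of Dct, 22 before that of Tyr and 47 before that of Tyrp1, in each on the strand of the gene. Searched on both strands, it was in 134 of 32851 promoters in the table, or 0.408%. The M-box with AG directly before it was in 7 of the 32851 (0.0213%), and Tyr and Tyrp1 were among their genes. The core CATGTG, inside both longer motifs, was in 14.2% of all promoters, and Dct held a further copy on the other strand. The other E-box core, CACGTG, was in 7.15% of all promoters and in 0 of the 7 member promoters. None of these motifs was in the 3 promoters of Mitf or in that of Ednrb. Among 58 promoters of 40 other genes of the pigment pathway, 0 held the M-box. These matches describe letters in a window and show no binding.

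The libraries held 16838212 to 28887367 counts on genes, and levels are given as CPM, the count relative to library size after TMM scaling. They can be compared between libraries for 1 gene, but not between genes, because gene length was not used. The tissue markers of keratinocytes (Krt14, Krt10), fibroblasts (Col1a1), muscle (Acta1) and neural crest cells (Sox10) were present in every group. Sox10, which melanocytes and Schwann cells share, stood between a group mean of 4.54 ± 1.56 CPM (SD, n = 3) with SNX-5422+CEES and one of 5.44 ± 0.462 in control. Library 1 of SNX-5422+PAO stood apart from the other two of its group in the pigment genes and in hair follicle genes, as given below. It also differed from libraries 2 and 3 in the summed levels of Schwann cell genes (219 CPM against 73.0 and 127), endothelial genes (166 against 80.4 and 115), macrophage genes (1167 against 758 and 920) and fibroblast genes (4369 against 2727 and 3433). Its mitochondrial ribosomal RNA was 12.3% of counts, against 17.4% and 17.0%. The library codes of the CEES groups (13 to 18) follow apart from those of the other groups (1 to 9), and the labels do not say what they mark, so a batch and CEES cannot be told apart.

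Pmel encodes the scaffold of the melanosome. Its level was 21.6, 13.5 and 19.0 CPM in the control libraries 1 to 3, 9.06, 9.30 and 8.05 after PAO, and 16.1, 67.2 and 45.5 after SNX-5422+PAO. With CEES it was 15.7, 9.10 and 14.1, and with SNX-5422+CEES 16.5, 9.47 and 11.4. All PAO libraries were thus below all control libraries. SNX-5422+PAO libraries 2 and 3 were above every other library, while library 1 lay within the control range. By group mean the order was SNX-5422+PAO, control, CEES, SNX-5422+CEES and PAO, and the ranges of neighbours overlapped in that order except between SNX-5422+CEES and PAO, where 9.47 and 9.30 nearly touched.

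Dct, Tyr and Tyrp1, the enzymes, followed the same course. Dct was at 36.1, 17.7 and 28.9 CPM in control, 16.5, 11.1 and 15.9 after PAO, and 34.0, 75.0 and 55.4 after SNX-5422+PAO. It was at 30.1, 20.3 and 29.0 with CEES and 30.2, 11.4 and 17.3 with SNX-5422+CEES. Again the PAO libraries lay below the control libraries, and SNX-5422+PAO libraries 2 and 3 were the highest of all. Tyr was at 6.42, 4.83 and 7.14 CPM in control, 2.45, 2.05 and 2.48 after PAO, and 3.47, 17.9 and 11.9 after SNX-5422+PAO. It was at 6.16, 5.34 and 6.02 with CEES and 7.34, 2.15 and 3.23 with SNX-5422+CEES. Tyr in library 1 of SNX-5422+PAO was thus below every control library, yet above every PAO library. Tyrp1 was at 23.0, 12.1 and 19.5 CPM in control, 11.6, 6.48 and 10.5 after PAO, and 17.0, 71.4 and 44.6 after SNX-5422+PAO. It was at 25.2, 19.1 and 22.2 with CEES and 27.4, 9.62 and 13.9 with SNX-5422+CEES. For Tyrp1 the CEES mean (22.1) stood above the control mean (18.2), with overlapping ranges.

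Mlana and Slc45a2 had few counts. Mlana was at 1.61, 1.63 and 2.24 CPM in control, 0.667, 0.705 and 0.962 after PAO, and 0.854, 7.07 and 5.33 after SNX-5422+PAO. It was at 0.918, 0.816 and 1.03 with CEES and 1.24, 0.587 and 0.455 with SNX-5422+CEES. Library 1 of SNX-5422+PAO lay inside the PAO range for Mlana. Slc45a2 had 20, 19 and 25 counts in control, 2, 2 and 15 after PAO, and 15, 61 and 36 after SNX-5422+PAO. It had 21, 19 and 14 counts with CEES and 37, 14 and 19 with SNX-5422+CEES. PAO library 3 alone kept Slc45a2 near the control level, with 0.759 CPM against 0.811 in the lowest control library.

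Across these 6 genes the highest group mean was always that of SNX-5422+PAO. The lowest was that of PAO, except for Mlana, where SNX-5422+CEES (0.759 ± 0.418 CPM, SD, n = 3) and PAO (0.778 ± 0.160) were side by side. Summed over the 6 genes, the level was 72.7 ± 20.1 CPM in control, 36.3 ± 5.71 after PAO and 160 ± 85.1 after SNX-5422+PAO. It was 69.1 ± 12.3 CPM with CEES and 55.0 ± 26.1 with SNX-5422+CEES. The SD of SNX-5422+PAO was the widest of the 5 groups.

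Mitf and Ednrb did not follow that course. Mitf was at 33.0, 29.7 and 32.8 CPM in control, 44.5, 40.6 and 38.5 after PAO, and 46.6, 37.9 and 38.1 after SNX-5422+PAO. It was at 40.9, 48.2 and 39.6 with CEES and 36.1, 35.0 and 32.4 with SNX-5422+CEES. Every library with an agent alone was above every control library, and the SNX-5422+CEES libraries reached down into the control range. Ednrb was at 13.5, 7.06 and 10.4 CPM in control, 38.7, 7.76 and 27.9 after PAO, and 15.9, 17.3 and 20.6 after SNX-5422+PAO. It was at 33.7, 45.8 and 37.0 with CEES and 28.6, 42.2 and 34.1 with SNX-5422+CEES. PAO library 2 lay within the control range of Ednrb, whereas both groups with CEES were wholly above it.

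**Figure D1:**
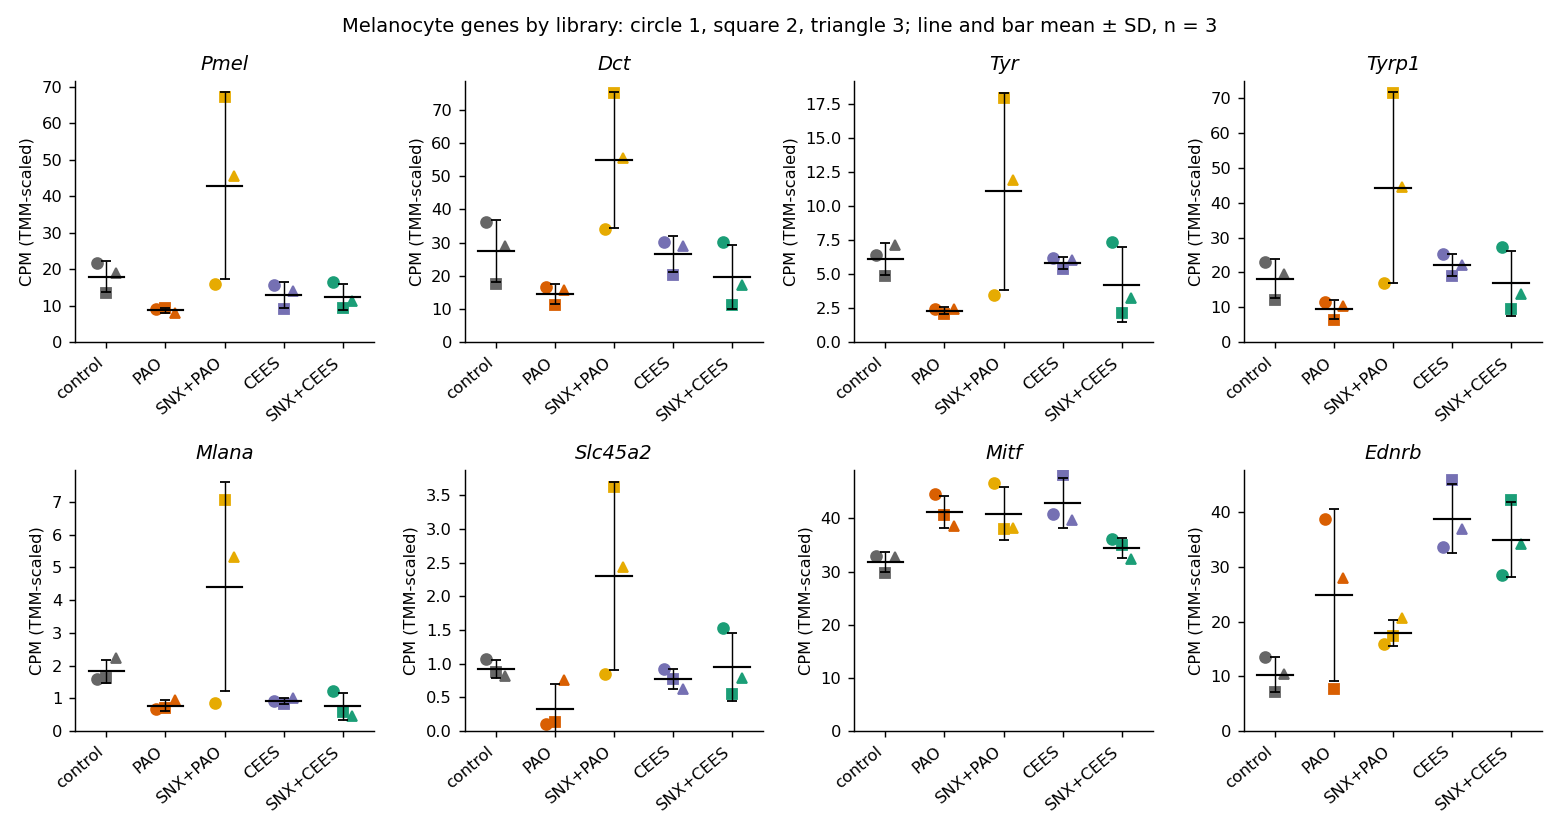
Level of each gene (CPM on TMM-scaled libraries, linear axis from 0) in the 15 libraries by group; symbols mark replicate 1, 2 or 3 and bars the mean ± SD (n = 3). In the first 6 panels SNX-5422+PAO libraries 2 and 3 stand above all others, for Pmel at 67.2 and 45.5 CPM, while Mitf and Ednrb show no such step.

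As a description over the 15 libraries, which share treatments, Pearson's r of log2 CPM among the 6 melanosome genes ran from 0.749 (Mlana with Slc45a2) to 0.957 (Dct with Tyrp1). With Mitf the same 6 genes had r from -0.261 to 0.0313, and with Ednrb from -0.373 to 0.0885. Mitf and Ednrb had r = 0.418. Among the 18007 genes that averaged 1 CPM or more, those most like the mean of the 8 members were Mcm2 (r = 0.924), Dnmt1 (0.897), Pxylp1 (0.895), Bard1 (0.894) and Tonsl (0.884). Mcm2 is a subunit of the replicative helicase and Dnmt1 the maintenance DNA methyltransferase. Mcm2 was at 38.9 ± 0.868 CPM in control, 33.5 ± 0.575 after PAO and 45.9 ± 5.54 after SNX-5422+PAO (SD, n = 3), a narrower range than that of the pigment genes. For Pmel alone the most similar were Stmn1 (r = 0.936), Hist1h2ak (0.930), Hmgb2 (0.913), Mcm2 (0.909) and Hist1h3d (0.904). Histone genes have near-identical copies, so the counts of those 2 are uncertain.

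The first comparison asked what PAO changed. The 4 melanosome genes that were tested, Tyr, Tyrp1, Mlana and Slc45a2, had log2 fold changes from -1.40 to -0.92 and a median of -1.30, against a median of -0.0040 over all genes tested. None of the 4 was called at an adjusted p under 0.05. The fit shares the spread estimate of a gene among all groups, SNX-5422+PAO included. There the SD of log2 CPM was 1.21 for Tyr, 1.05 for Tyrp1 and 1.58 for Mlana, against 0.146, 0.446 and 0.255 in PAO. For Slc45a2 it was 1.02 against 1.15. The part of this spread in the missing calls was not tested. Mitf rose by 0.37 ± 0.10 (log2 fold change ± SE, edgeR adjusted p = 0.0183), and Ednrb rose by 1.28 ± 0.38 (adjusted p = 0.0240). The called share was thus 2 of 6 tested members, both raised, against 20.4% of all 22529 genes (11.9% raised and 8.58% lowered). In each of these 4 melanosome genes all 3 PAO libraries were below all 3 control libraries, which held in that direction for 17.2% of all genes. Mitf was higher in all 3 PAO libraries, as were 18.8% of all genes.

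Tyr came nearest to a call, at -1.40 ± 0.48 (edgeR adjusted p = 0.0513), and it was called in several alternative fits, with DESeq2 at an adjusted p of 0.0130. In edgeR its adjusted p was 0.00241 when only the PAO and control groups were fitted, and 0.00992 without SNX-5422+PAO library 1. Tyrp1 was at -0.92 ± 0.44 (adjusted p = 0.154), Mlana at -1.23 ± 0.57 (adjusted p = 0.144) and Slc45a2 at -1.38 ± 0.65 (adjusted p = 0.154). Both Tyrp1 (adjusted p = 0.0391) and Mlana (adjusted p = 0.0255) were called as lowered when only the PAO and control groups were fitted. They were also called with no filter on low counts (adjusted p = 0.00404 and 0.0412). Mlana was called without SNX-5422+PAO library 1 too (adjusted p = 0.0188). Without PAO library 3, Slc45a2 was at -2.89 (adjusted p = 0.0264). Pmel was at -1.04 and Dct at -0.92, untested. The call of Mitf was lost with total-count scaling (0.17, adjusted p = 0.336), without control library 2 (adjusted p = 0.0676) and without PAO library 1 (adjusted p = 0.109). That of Ednrb was lost when only the PAO and control groups were fitted (adjusted p = 0.0900). It was also lost without PAO library 1 (0.80, adjusted p = 0.171), PAO library 3 (adjusted p = 0.0843), control library 2 (adjusted p = 0.0790) or control library 3 (adjusted p = 0.0721).

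Markers of the growing hair follicle were lower in the same libraries. Where melanocytes lay in this hairless, albino skin was not examined. The summed level of 14 follicle genes, mostly hair keratins, was 3524, 1525 and 3268 CPM in control and 1353, 603 and 1083 after PAO, with a median log2 fold change of -1.34 and 0 of 14 genes called. None of the 14 was at 0 in any library. In bulk skin, fewer melanocytes and less RNA per melanocyte cannot be told apart. The summed level of endothelial markers was 268, 109 and 212 CPM in the PAO libraries, lowest in library 2 as was Ednrb, and 105 to 144 in control. Library 2 was also the lowest PAO library in fibroblast genes (7204, 3698 and 6403 CPM in libraries 1 to 3) and mast cell genes (71.2, 24.6 and 52.9). The same held for Schwann cell, macrophage and follicle genes, but not for keratinocyte or muscle genes. Macrophage markers were higher after PAO, as was Mitf, at 997 to 1077 CPM against 348 to 428 in control, with 9 of 10 raised, while the mast cell list had 1 of 10 raised. In SNX-5422+CEES skin macrophage markers were at 889 to 1318 CPM, but Mitf was not called against control (0.11, edgeR adjusted p = 0.470). Mitochondrial ribosomal RNA was 9.69, 17.7 and 13.0% of counts in the PAO libraries and 6.63 to 8.23% in control. The part of these lists in the results was not tested.

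**Figure D2:**
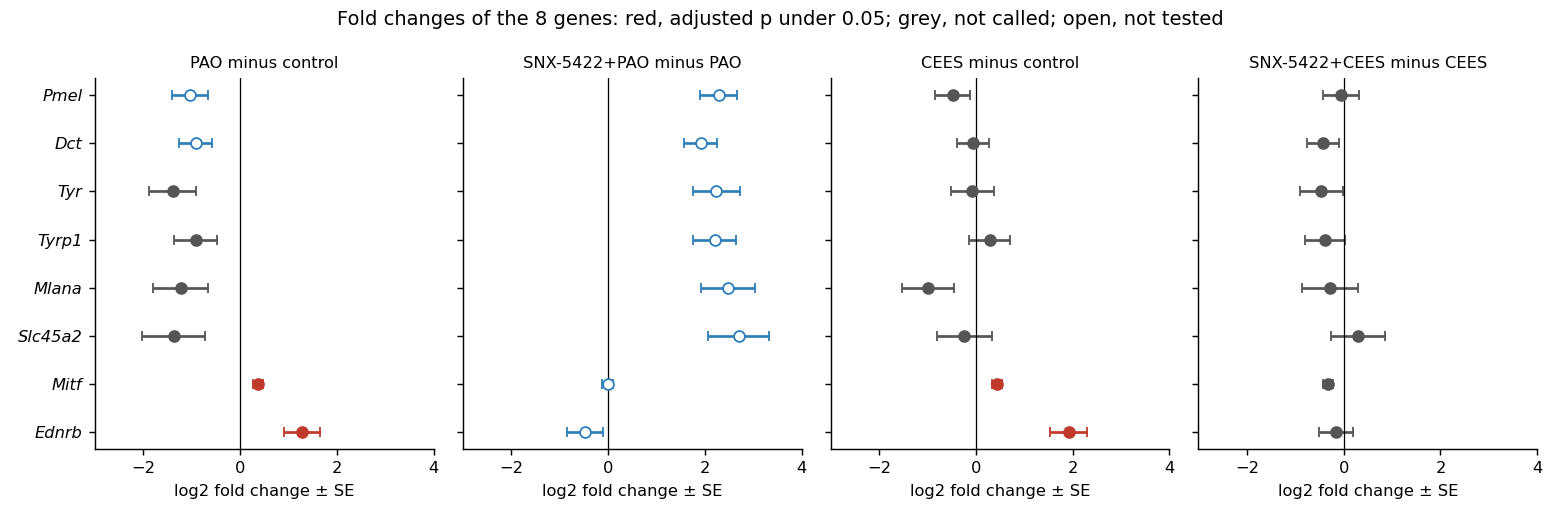
Log2 fold change ± SE of each gene in 4 comparisons, from 1 edgeR fit of 15 libraries; red points are called at an adjusted p under 0.05, grey are not, and open points were not tested. The 6 melanosome genes lie at -1.40 to -0.92 after PAO and at 1.91 to 2.701 for SNX-5422+PAO minus PAO, and from -0.997 to 0.28 after CEES.

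The contrast that chose the members compared SNX-5422+PAO with PAO, and its values are given without a test. Slc45a2 was higher by 2.701 on the log2 scale, Mlana by 2.48, Pmel by 2.28, Tyr by 2.24, Tyrp1 by 2.21 and Dct by 1.91. Mitf was at -0.011 and Ednrb at -0.47. For 5 members every SNX-5422+PAO library was above every PAO library, as for 11.7% of all genes, and Mlana missed this through library 1. In edgeR 5.96% of all genes were called here, 2.57% raised and 3.39% lowered. The size of the difference depended on single libraries. Pmel was at 1.80 without SNX-5422+PAO library 2 and at 2.67 without library 1, and Slc45a2 was at 4.19 without PAO library 3. The 6 melanosome genes remained higher under each of the 10 alternative settings and each library left out. That is no separate support, because this contrast chose the members.

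The follicle markers did not stand in the same relation. Their summed level was 218, 1888 and 1375 CPM in SNX-5422+PAO libraries 1, 2 and 3, so that library 1 was below every PAO library, while the summed level of the 6 melanosome genes in library 1 (72.2 CPM) was above every PAO library (29.8 to 40.4 CPM). The median log2 fold change of the 14 follicle genes was 0.75, with 0 called. Within a group, however, the libraries ranked alike in follicle genes and melanosome genes in 4 of 5 groups, CEES being the exception, where libraries 1 and 3 changed places. For comparison, endothelial and mast cell lists ranked like the melanosome genes in 3 groups each, Schwann cell genes in 2 and macrophage genes in 1. The part of hair follicle content in the differences was not tested.

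**Figure D3:**
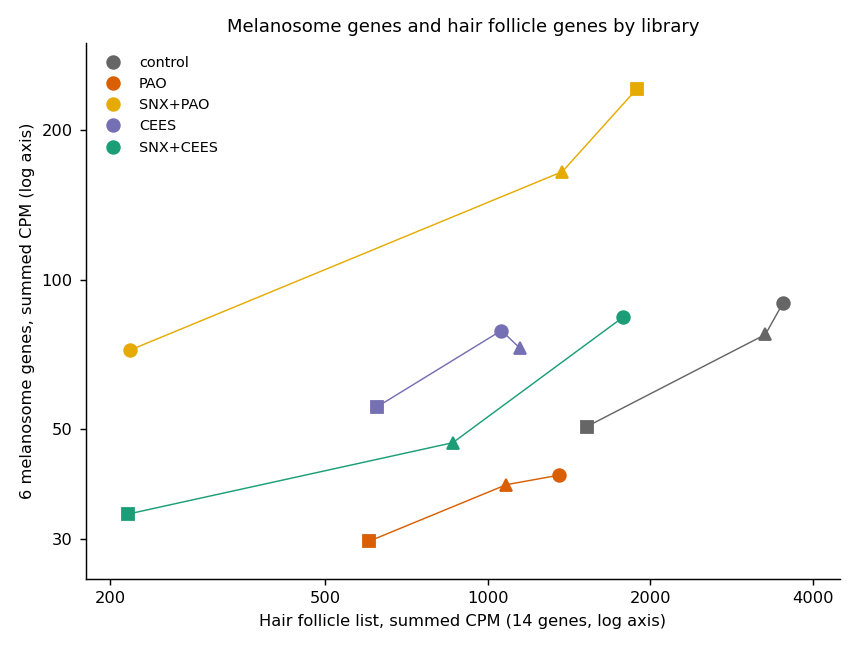
Summed level of the 6 melanosome genes against that of 14 hair follicle genes (CPM, both axes log) in each library; lines join the libraries of a group and symbols mark replicate 1 (circle), 2 (square) and 3 (triangle). SNX-5422+PAO library 1 has 218 CPM of follicle genes and 72.2 CPM of melanosome genes, and PAO library 1 has 1353 and 40.4 CPM.

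Against control, SNX-5422+PAO skin had higher values of all 8 members. Its mitochondrial ribosomal RNA was also higher, at 12.3, 17.4 and 17.0% of counts against 6.63 to 8.23%, with the higher values in libraries 2 and 3, where the melanosome genes were highest. With that share as a covariate, Tyrp1 was at 1.18 (edgeR adjusted p = 0.442), Mitf at 0.50 (adjusted p = 0.0831) and Mlana at -0.41 (adjusted p = 0.844). Tyrp1 rose by 1.28 ± 0.42 (edgeR adjusted p = 0.0418) and Mitf by 0.36 ± 0.10 (adjusted p = 0.0236), 2 of 6 tested against 19.3% of all genes (10.7% raised, 8.66% lowered). The call of Tyrp1 is no separate support, because it moved with Pmel (r = 0.894) and Dct (r = 0.957), which were known to be higher in these libraries. Groups that do not overlap, higher in SNX-5422+PAO, were seen for 2 members, Mitf and Ednrb, and for 18.4% of all genes, and lower ones for 0 members and 16.3% of all genes. Slc45a2 was at 1.32 (adjusted p = 0.102), Mlana at 1.26 (adjusted p = 0.0899), Tyr at 0.85 (adjusted p = 0.197) and Ednrb at 0.80 (adjusted p = 0.156). Pmel at 1.25 and Dct at 0.99 were not tested. The call of Tyrp1 was lost without SNX-5422+PAO library 2 (0.74, adjusted p = 0.251), and with DESeq2 (adjusted p = 0.0563). It was lost without 10 of the 15 libraries left out in turn, which were control 1, 2 and 3, PAO 1 and 3, SNX-5422+PAO 2 and 3, CEES 1 and 3 and SNX-5422+CEES 3. The call of Mitf was lost with total counts (0.023, adjusted p = 0.902), upper-quartile scaling (adjusted p = 0.0651) or only the groups compared (adjusted p = 0.0649), and without control library 2 (adjusted p = 0.0816) or 3 (adjusted p = 0.0587). Ednrb was called in the fit of only those groups (adjusted p = 0.0406) and with no filter (adjusted p = 0.00681). The macrophage list had 6 of 10 genes raised here and the mast cell list 6 of 10 lowered, and their part in the Mitf value was not tested. Without SNX-5422+PAO library 1, Tyr was at 1.25 (adjusted p = 0.0260), Mlana at 1.73 (adjusted p = 0.00287) and Slc45a2 at 1.70 (adjusted p = 0.0398), while Mitf was at 0.23 (adjusted p = 0.163).

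The comparison of CEES with control asked what the mustard changed, in libraries that took no part in choosing the members. Mitf rose by 0.43 ± 0.10 (edgeR adjusted p = 0.00419) and Ednrb by 1.92 ± 0.38 (adjusted p = 0.000897). These were 2 of 8 members, against 33.9% of all genes called (17.8% raised, 16.2% lowered). For both, all CEES libraries were above all control libraries, as for 23.5% of all genes. Neither call was lost in any alternative fit or with any library left out. None of the 6 melanosome genes was called. Pmel was at -0.48 (95% interval -1.25 to 0.29, adjusted p = 0.339), Dct at -0.059 (-0.76 to 0.64, adjusted p = 0.912), Tyr at -0.074 (-1.01 to 0.86, adjusted p = 0.918) and Tyrp1 at 0.28 (-0.60 to 1.17, adjusted p = 0.639). Mlana was at -0.997 (-2.14 to 0.15, adjusted p = 0.168), with all CEES libraries below all control libraries as for 24% of all genes, and Slc45a2 at -0.24 (-1.45 to 0.97, adjusted p = 0.782). Mlana passed the threshold when only CEES and control were fitted (adjusted p = 0.0236) and without SNX-5422+PAO library 1 (adjusted p = 0.0301).

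Within the summed CPM of the 6 genes the make-up differed in CEES skin. Pmel made up 18.6% ± 1.87 in CEES and 25.1% ± 1.37 in control libraries (SD, n = 3), and Tyrp1 made up 32.2% ± 2.06 and 24.9% ± 0.895. In SNX-5422+CEES libraries Pmel made up 24.0% ± 4.23 and Tyrp1 30.2% ± 2.09. These shares were not tested, and a batch marked by the library codes cannot be told apart from CEES. The follicle genes were at 1060, 623 and 1146 CPM in CEES, with 4 of 14 lowered. The endothelial list was at 317 to 438 CPM, with 9 of 10 genes raised, and none of its genes was at 0 in any library. The mast cell list was at 140 to 162 CPM, against 17.7 to 60.3 in control, with 4 of 10 raised. The macrophage list was at 1564 to 2384 CPM, against 348 to 428, with 10 of 10 raised. The part of these cell types in the higher Mitf and Ednrb was not tested.

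SNX-5422 after CEES changed 0 of the 8 members by edgeR, while 7% of all genes were called (3.54% raised, 3.46% lowered). At an unadjusted p under 0.05 the count was 1, Mitf, and DESeq2 also called 1. Mitf was at -0.32 ± 0.10 (edgeR adjusted p = 0.0817), with every SNX-5422+CEES library below every CEES library as for 12.8% of all genes, and DESeq2 gave it an adjusted p of 0.0410. The melanosome genes lay between -0.46 (Tyr) and 0.30 (Slc45a2), and their 95% intervals ran from -1.14 to 0.27 for Dct and from -0.84 to 0.72 for Pmel. The higher Pmel and Dct of the PAO groups had no counterpart in these values, with Pmel at -0.059 and Dct at -0.43. The difference between both SNX-5422 effects was not tested, since one of them chose the members.

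Against control, SNX-5422+CEES skin had Ednrb raised by 1.77 ± 0.37 (edgeR adjusted p = 0.00301), the only call among 8 members, against 22.3% of all genes (13.1% raised, 9.25% lowered). Its libraries were all above control, as for 19.8% of all genes, and those of Mlana all below, as for 17.9%. Mlana was at -1.27 ± 0.55 (adjusted p = 0.108). It was called without SNX-5422+CEES library 1 (-1.81, adjusted p = 0.0494), as was Dct (-0.94, adjusted p = 0.0479). That library had the highest follicle level of its group, 1783 CPM against 216 and 862 in libraries 2 and 3.

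When CEES was set against PAO, all 8 members had positive values, and 0 of the 6 tested were called by edgeR, while 18.9% of all genes were (9.86% raised, 9.02% lowered). At an unadjusted p under 0.05 the count was 2, Tyr (1.32 ± 0.48, adjusted p = 0.0685) and Tyrp1 (1.21 ± 0.44, adjusted p = 0.0657), and DESeq2 called 1, Tyr. With only CEES and PAO fitted, edgeR called both Tyr (adjusted p = 0.00135) and Tyrp1 (adjusted p = 0.00335). Both were also called without SNX-5422+PAO library 1 (adjusted p = 0.0136 and 0.0188), a library of neither group. Dct, Tyr and Tyrp1 were higher in every CEES library than in every PAO library, which held for 18.3% of all genes. The agents differ in dose, so these values compare the treatments as given.

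The other melanosome proteins form a list of 12 genes, of which 11 were tested, drawn up with earlier results of these data known. After PAO 3 rose and 2 fell, 45.5% of those tested, against 20.4% of all genes. Cd63, a tetraspanin that sorts PMEL fragments, rose by 1.67 ± 0.14, from 44.3 ± 4.84 to 141 ± 16.4 CPM (SD, n = 3, edgeR adjusted p = 1.73e-06). Gpnmb, a glycoprotein related to PMEL that macrophages also make, rose by 1.00 ± 0.11 (adjusted p = 1.96e-05). Macrophage markers had 9 of 10 genes raised after PAO, and their part in the Cd63 and Gpnmb values was not tested. Rab38, a GTPase that delivers enzymes to melanosomes, fell by 0.57 on the log2 scale (adjusted p = 0.0207), and Atp7a, the copper pump that supplies tyrosinase, fell by 0.23 (adjusted p = 0.0365).

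With SNX-5422 after PAO this list had 0 raised and 2 lowered (18.2%, against 3.39% of all genes lowered). Its median was 0.20, with 7 of 11 tested genes above 0. Besides the 2 called genes, Slc7a11 (-0.58) and Atp7a (-0.12) were below 0. Gpnmb stood at 583, 752 and 621 CPM in PAO and at 369, 346 and 351 in SNX-5422+PAO, a fall of 0.88 (edgeR adjusted p = 0.000452). Cd63 fell by 0.51 (adjusted p = 0.0375). After CEES 4 rose and 1 fell (45.5%, against 33.9% of all genes, 17.8% raised and 16.2% lowered). Among them were Cd63 (1.71, adjusted p = 3.70e-07) and the cystine transporter Slc7a11 (1.69, adjusted p = 0.000134) as raised and Rab38 (-0.52, adjusted p = 0.0204) as lowered. SNX-5422 after CEES again lowered 2 (18.2%, against 3.46% of all genes), and Gpnmb fell by 1.52 ± 0.11, from 343, 326 and 358 CPM to 125, 113 and 119 (adjusted p = 7.31e-06). Macrophage markers were at 997 to 1077 CPM after PAO, 758 to 1167 after SNX-5422+PAO and 889 to 1318 in SNX-5422+CEES. Of these markers 10 of 10 were raised after CEES, and 3 of 10 were lowered in each SNX-5422 comparison. Their part in the Gpnmb and Cd63 values was not tested.

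Trpm1, Oca2, Slc24a5, Mc1r and Gpr143, genes of the pathway lists known from melanocytes, were picked out after their values were seen, so their likeness to the members is no support. Sox10 and Pax3 of the same lists went the other way in SNX-5422+PAO libraries 1 to 3. Sox10 was at 6.15, 4.81 and 4.05 CPM there, and Pax3 at 4.95, 3.56 and 4.18. Trpm1, a channel of melanocytes, was at 15.6, 7.20 and 11.4 CPM in control, 6.56, 6.16 and 7.29 after PAO, and 4.38, 31.4 and 24.4 after SNX-5422+PAO. Oca2, which affects melanosome pH, was at 2.46, 1.58 and 2.24 CPM in control, 0.389, 1.48 and 0.405 after PAO, and 0.171, 6.59 and 6.47 after SNX-5422+PAO. Like the 6 melanosome genes, both were highest in SNX-5422+PAO libraries 2 and 3, but library 1 was lower than every PAO library. The exchanger gene Slc24a5, the melanocortin receptor gene Mc1r and Gpr143, a melanosome receptor gene that did not pass the filter, were likewise highest in libraries 2 and 3. None of the 4 tested was called in SNX-5422+PAO minus PAO, where Trpm1 was at 1.58 (edgeR adjusted p = 0.0760), Oca2 at 2.57 (adjusted p = 0.0945), Mc1r at 2.44 (adjusted p = 0.0973) and Slc24a5 at 1.55 (adjusted p = 0.162). Mc1r was at 0 in PAO library 1.

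**Figure D4:**
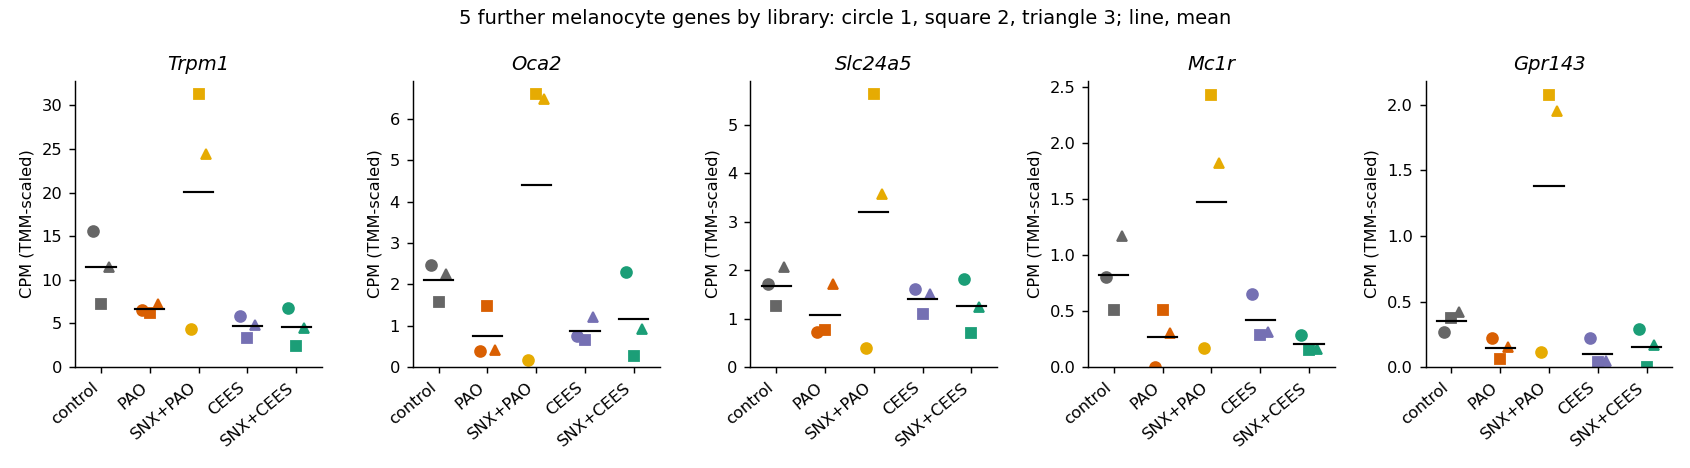
Level (CPM, linear axes from 0) of 5 further melanocyte genes, picked after their values were seen, in the 15 libraries; lines are group means and symbols mark replicates 1 to 3. In each panel SNX-5422+PAO libraries 2 and 3 are highest, for Trpm1 at 31.4 and 24.4 CPM, and library 1 is low, at 4.38 CPM. Sox10 and Pax3, not shown, were highest in library 1 of that group.

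The 17 listed genes of melanosome assembly and transport were all tested. After PAO 2 rose and 1 fell (17.6%, against 20.4% of all genes), with a median of -0.0061. Bloc1s6 (0.54, edgeR adjusted p = 0.00127) and Dtnbp1 (0.31, adjusted p = 0.0211), subunits of the BLOC-1 sorting complex, rose, and Rab27a, which tethers melanosomes for transport, fell by 0.51 (adjusted p = 0.0205). SNX-5422 after PAO raised 1 (5.88%, against 2.57% of all genes), Mlph, the adaptor between RAB27A and myosin, from 3.11, 3.14 and 3.95 CPM to 4.84, 6.30 and 7.28 (0.84 ± 0.24, adjusted p = 0.0491). After CEES 2 rose and 3 fell (29.4%, against 33.9% of all genes), among them Myo5a, the myosin that carries melanosomes, at 0.51 (adjusted p = 0.00167). SNX-5422 after CEES lowered 3 (17.6%, against 3.46% of all genes), with Lyst, a regulator of organelle size, at -0.39 (adjusted p = 0.00689) and Dtnbp1 at -0.32 (adjusted p = 0.0347).

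Of 19 lineage signals and regulators, 18 were tested. After PAO 5 rose and 2 fell, 38.9% against 20.4% of all genes. After CEES 4 rose and 2 fell, 33.3%, close to the 33.9% of all genes. Tfec, a relative of Mitf, rose by 2.16 ± 0.34 after PAO (edgeR adjusted p = 0.000317) and by 4.47 ± 0.33 after CEES (adjusted p = 1.46e-07), from 0.957 ± 0.307 CPM in control to 4.32 ± 0.526 and 21.5 ± 9.78 (SD, n = 3). Macrophage markers had 9 of 10 genes raised after PAO and 10 of 10 after CEES. Their part in the Tfec values, and in the Zeb2 value below, was not tested. Hgf, a growth factor for melanocytes, rose by 2.71 ± 0.22 after CEES (adjusted p = 2.84e-07). Fibroblast markers moved with it, at 13889 to 16507 CPM after CEES and 3150 to 4287 in control, with 10 of 10 raised, and their part was not tested. Erbb3, a neuregulin receptor of neural crest cells, fell by 0.36 after PAO (adjusted p = 0.00739) and by 0.53 after CEES (adjusted p = 0.000181). Zeb2, a factor of melanocyte differentiation, rose by 0.70 after PAO (adjusted p = 0.00147), and Tfap2a, which acts with MITF, fell by 0.91 after CEES (adjusted p = 1.91e-05). Of 10 keratinocyte markers, 3 were lowered and 2 raised after PAO, and 4 were lowered and 2 raised after CEES. Their part in the Erbb3 and Tfap2a values was not tested. Edn1, a ligand of EDNRB, fell by 0.65 after PAO (adjusted p = 0.0298) and by a further 0.98 with SNX-5422 after PAO (adjusted p = 0.0154). Edn3, the ligand that acts on melanocyte precursors, was higher in SNX-5422+PAO skin than in control (1.31, adjusted p = 0.0292).

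SNX-5422 lowered 2 lineage genes after PAO (11.1%, against 3.39% of all genes), Edn1 and Hgf (-1.13, edgeR adjusted p = 0.0101), and raised none. After CEES it lowered 3 (16.7%, against 3.46%), with Hgf at -1.55 (adjusted p = 0.000435) and Tfec at -1.73 (adjusted p = 0.00160), and raised none. Macrophage markers had 3 of 10 genes lowered there, and their part in the Tfec value was not tested. Kitl, the ligand of the KIT receptor on melanocytes, rose against control after PAO (0.38, adjusted p = 0.0325) and CEES (1.07, adjusted p = 5.34e-06), and in SNX-5422+PAO (0.74, adjusted p = 0.000606) and SNX-5422+CEES skin (0.96, adjusted p = 4.33e-05). It was not called for SNX-5422 after PAO (0.35, adjusted p = 0.0981) or after CEES (-0.11, adjusted p = 0.668). Sox10 and Kit, chosen after their values were seen, were called in none of the 7 comparisons. Edn3 was chosen after its values were seen as well. Pax3, a factor upstream of MITF that was likewise chosen afterwards, was at 3.22, 1.99 and 2.28 CPM in PAO and at 4.95, 3.56 and 4.18 in SNX-5422+PAO, highest in library 1 where the melanosome genes were lowest (0.76, adjusted p = 0.114). The comparisons share their control, PAO or CEES libraries, so they are not independent of each other.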

How the data were processed

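Per the labels' protocols, skin RNA was prepared with an Aurum kit and Ribo-Zero Gold. The submitters' processing notes name bcl2fastq 2.18.0.12, Trim Galore 0.6.7, STAR 2.7.10a, HTSeq 2.0.2 and GRCm39. The authors deposited 1 table of raw counts. Its annotation release and strand setting are not stated in the sources, so overlapping genes are uncertain. Symbols matched 52093 of 53700 identifiers, and 5 summary entries (reads without a feature were 35.2 to 46.9%) stayed out of library sizes.

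Titles and treatments gave the groups. The SNX-5422+CEES titles share the number 1, so record order numbers them. Nothing says that each library is a separate animal, so the p-values rest on a spread that may be technical. Replicate pairs differed beyond sampling noise (chi-square per degree of freedom 6.99 to 50.2).

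edgeR 4.0.16 (R 4.3.3) fitted its quasi-likelihood model to 15 libraries with a mean per group, TMM and filterByExpr. It tested 22529 genes, with calls at an adjusted p (Benjamini-Hochberg) under 0.05, and was tested on simulated data. Alternatives were DESeq2 1.42.0, other scalings and filters, a covariate of mitochondrial ribosomal RNA (5.72 to 17.7% of counts), fits of the compared groups alone, a replicate block and each library left out. The members and lists were chosen with earlier results of these data known. Text names come from all members, up to 2 raised and 2 lowered called genes of each pathway list and comparison by smallest p, and the 5 genes most like the members and like Pmel by Pearson's r, unless said otherwise. Promoters are RefSeq's (GRCm38.p6), a build other than that of the counts.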

Additional observations from a re-analysis of the deposited data

Results flagged for a closer look

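The effects of CEES and PAO against the shared control differed, by the direct test of CEES minus PAO in edgeR, for 10 of the 46 pathway list genes tested. That is 21.7%, near the 18.9% of all genes called in this comparison, so the count is no result about these lists. Higher with CEES were Tfec (2.31 on the log2 scale, adjusted p = 4.54e-05), Hgf (1.73, adjusted p = 3.83e-05), Kitl (0.69, adjusted p = 0.000802), Zeb2 (0.66, adjusted p = 0.00239), Atp7a (0.44, adjusted p = 0.000708) and Rab32 (0.33, adjusted p = 0.0440). Lower with CEES were Gpnmb (-0.93, adjusted p = 3.59e-05), Tfap2a (-0.63, adjusted p = 0.00132), Tfeb (-0.47, adjusted p = 0.00219) and Bloc1s6 (-0.30, adjusted p = 0.0462). Among the 6 members tested none passed. CEES and the library codes cannot be told apart here. Lists of other cell types were higher with CEES as well. Of 10 genes each, 8 fibroblast genes (median 1.26, 13889 to 16507 CPM with CEES and 3698 to 7204 with PAO), 8 mast cell genes (median 2.04), 5 macrophage genes (median 0.41) and 4 endothelial genes (median 0.76) were raised. Their part in these differences was not tested.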

How the results depend on the processing

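Counts of called members moved with the processing. For SNX-5422+PAO minus control (2 called) upper-quartile scaling, total counts and the mitochondrial rRNA covariate gave 0, DESeq2 and the fit of only those groups 1, and no filter 6. For PAO minus control (2) no filter gave 5 and the fit of only those groups 4. For CEES minus PAO (0) total counts and no filter gave 3, DESeq2 1, and the fit of only those groups 2. For SNX-5422+CEES minus CEES (0) total counts and DESeq2 gave 1, and for SNX-5422+CEES minus control (1) no filter gave 2. The cause was not tested. Pathway calls went to 20 (total counts) and 6 (covariate) for CEES minus PAO, to 13 (no filter), 3 (covariate) and 2 (only those groups) for SNX-5422+PAO minus PAO, and to 8 (covariate) for SNX-5422+PAO minus control.

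With 1 library left out, called members ranged from 0 to 4 for PAO and for SNX-5422+PAO minus control, 2 to 3 for CEES minus control, 1 to 3 for SNX-5422+CEES minus control, 0 to 2 for CEES minus PAO and 0 to 1 for SNX-5422+CEES minus CEES. Pathway calls ranged from 9 to 16, 8 to 16, 12 to 17, 8 to 14, 8 to 11 and 5 to 9 in the same order, and from 2 to 12 for SNX-5422+PAO minus PAO.

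Signs turned for values near 0. Slc45a2 in SNX-5422+CEES minus control went to -0.0084 (upper quartile), -0.080 (covariate), and from -0.45 to 0.34 with a library left out, where -0.035 was also negative. In SNX-5422+CEES minus CEES it ranged from -0.21 to 0.58. Dct in CEES minus control went to 0.047 (total counts) and ranged from -0.28 to 0.18, and Tyr went to 0.039 (total counts) and ranged from -0.20 to 0.056. Mitf in CEES minus PAO went to -0.043 (covariate) and ranged from -0.033 to 0.15. Tyrp1 in SNX-5422+CEES minus control ranged from -0.63 to 0.18. Pmel in SNX-5422+CEES minus CEES ranged from -0.31 to 0.11. Mlana in SNX-5422+PAO minus control went to -0.41 with the covariate.

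Total counts shifted the median of all genes to -0.21 (PAO minus control), -0.14 (SNX-5422+PAO minus PAO), -0.33 (SNX-5422+PAO minus control), 0.31 (CEES minus PAO), 0.08 (CEES minus control) and -0.098 (SNX-5422+CEES minus CEES). The raised share of calls then fell from 58% to 24.8%, 43.1% to 17.6%, 55.2% to 8.61% and 50.6% to 29.2% in PAO minus control, SNX-5422+PAO minus PAO, SNX-5422+PAO minus control and SNX-5422+CEES minus CEES. It rose from 52.2% to 89.9% in CEES minus PAO and from 52.4% to 67.7% in CEES minus control. With upper-quartile scaling it was 46.6%, 41.3% and 46.6% for PAO, SNX-5422+PAO and SNX-5422+CEES minus control, against 58.6% in the last. All genes called went from 4353 to 7501 (total counts) and 1443 (covariate) for SNX-5422+PAO minus control, and from 4255 to 7863 and 1382 for CEES minus PAO.

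Replicate numbers did not pair the samples (correlations of same-numbered deviations -0.104 to 0.103 over 18 pairs, 1 over 0.1). The replicate block, on 12 libraries, gave 1 called member for SNX-5422+PAO minus control and 3 for PAO minus control. Without the block, an alternative added after seeing the data, the same 12 libraries gave 2 for CEES minus PAO. Mlana and Slc45a2, at 0.455 to 7.07 and 0.111 to 3.62 CPM, are limited by depth.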
